A study of Mus musculus with 15 samples.

Results

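Ventricles of mice in which Celf1 had been induced in the heart for 24 hours were compared with ventricles of control mice, 3 mice against 3. The 24 hour mice carried MHCrtTA and TRECUGBP1, the activator rtTA under the promoter of alpha-myosin heavy chain, which is active in cardiomyocytes, and a tetracycline-responsive transgene for the LYLQ isoform of human Celf1 with a Flag tag. The control mice carried MHCrtTA alone. All were 20 to 22 weeks old and ate doxycycline food at 2 g per kg after 2 to 3 hours without food, the 24 hour mice for 24 hours and the controls for 72 hours, so time on doxycycline differs between the groups. The 6 mice are part of a series of 15, in which the other 9 mice had the transgene induced for 12 hours, 72 hours or 7 days. The mice were found by the time point in the labels and column names. Polyadenylated RNA was sequenced from ventricles without the atria and without a small part of the apex, so cells other than cardiomyocytes are in the samples, and fewer cells of a type cannot be told apart from less RNA per cell.

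The deposited values are RPKM, read counts scaled by the length of the gene and by the mapped reads of the library, for 16042 genes. Changes are given as differences of log2(RPKM + 1), 24 hours minus control, with the standard error of a limma fit to all 15 mice, and "rose" and "fell" are used for an adjusted p under 0.05. Depth estimated from the smallest step between values was 19.6 to 41.0 M reads in the 4 columns of the 24 hour mice and 18.8 to 23.7 M in the 3 control columns. Mouse A3262 has 2 columns, which were averaged. They differed by a median of 0.048 on the log2 scale, with 61 of 10868 genes over 1 log2 unit apart. Mice are listed as A3254, A3277 and A3262 at 24 hours and as A3250, A3259 and A3280 for controls.

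Celf1 is an RNA-binding protein that regulates alternative splicing in the nucleus and binds GU-rich stretches in the 3' ends of messenger RNAs in the cytoplasm, where it promotes their decay. Its level in the heart is high before birth and falls afterwards, and it is raised again in the heart and muscle in myotonic dystrophy. Raising it in the adult heart is known to return many splicing events to their fetal pattern and to cause cardiomyopathy.

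Celf1 had 416, 423 and 295 RPKM in the 24 hour hearts, against 33.8, 36.1 and 33.3 RPKM in the control hearts. All 24 hour values lay above all control values. Celf1 averaged 378 ± 71.6 RPKM at 24 hours and 34.4 ± 1.48 RPKM in controls (SD, n = 3 each), and the log2 difference was 3.40 ± 0.20 with an adjusted p of 3.54e-08. An exact two-sided permutation test over the 6 mice gave 0.1, the smallest p that 3 against 3 allows. The gene lies at chr2:90780539-90859654 on mm9, and reads of the human transgene count only where they aligned to it. Mouse A3262 had the lowest Celf1 of the 24 hour mice, at 295 RPKM.

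Of 10868 genes whose RPKM averaged 1 or more over the 15 mice, 585 rose (5.38%) and 1151 fell (10.6%), and 3874 had an unadjusted p under 0.05. The median gene stood at -0.19, so each library was also centred by its median ratio to the mean of all libraries. This log2 ratio was 0.007 in A3254, 0.018 in A3277 and -0.203 in A3262, and 0.091 to 0.148 in controls. On that centred scale 977 genes (8.99%) were higher and 766 (7.05%) lower, and 582 genes were higher and 766 lower on both scales. The test was passed on both scales, with groups that did not overlap on either, by 575 genes that rose (5.29%) and 761 that fell (7.00%), 12.3% in all. Values of the 24 hour mice lay wholly above the controls in 13.9% of genes and wholly below in 32.9%, 46.8% in all, and on the centred scale in 22.0% and 21.6%.

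The direction of change went with base composition. Among the 3607 genes in the tertile with the lowest exon GC content 510 rose and 97 fell, in the middle tertile 61 rose and 358 fell, and in the highest 12 rose and 689 fell. A correction of each library for GC content by a lowess curve left 528 genes higher (4.88%) and 511 lower (4.72%), and 281 genes were higher and 338 lower on both scales and with this correction. Each column also carries a 6-digit code whose meaning is not stated. The codes of the 24 hour mice occur in no other group, and the code of the 3 controls is shared by 1 other mouse, A3278 of the 72 hour group, so effects of the code cannot be told apart from those of the group. Among the 24 hour mice A3254 and A3277 share a code, and the columns of A3262 carry other codes. The medians of the 3 mice at 24 hours against the control mean were 0.15 to 0.19 in the lowest GC tertile. In the highest they were -0.36 in A3254, -0.26 in A3277 and -0.68 in A3262. The slope was not particular to 24 hours. At 72 hours mice A3281 and A3264, whose codes differ from the controls', had 0.23 and 0.11 in the lowest tertile and -0.46 and -0.38 in the highest, while A3278, with the controls' code, had 0.04 and 0.15. In the highest tertile the medians were -0.61 to -0.445 at 12 hours and -0.61 to -0.23 at 7 days. A3278 is the only 72 hour mouse with the controls' code, so code, mouse and library cannot be told apart there. The part of the code in the results at 24 hours was not tested.

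**Figure D1:**
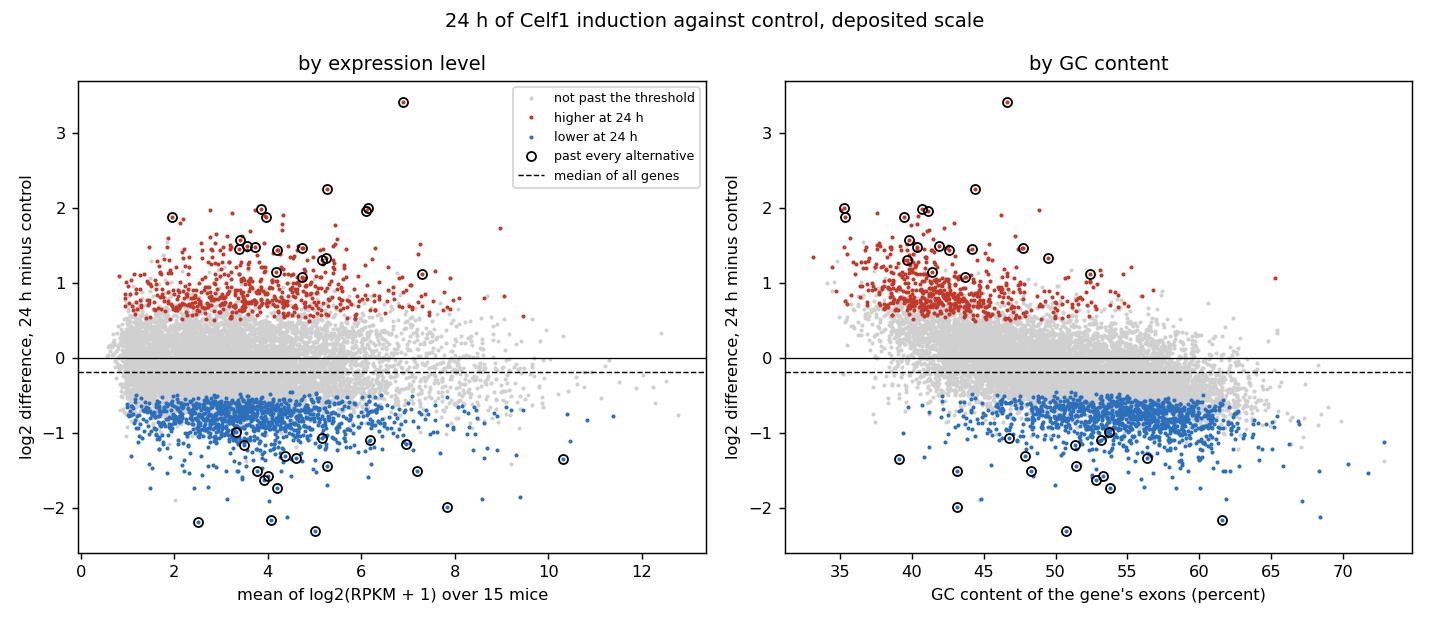
Log2 difference of RPKM + 1, 24 hours minus control, for each of 10868 genes against its mean level (left) and the GC content of its exons (right). Red genes rose and blue genes fell, open circles are the 36 genes past the threshold under every alternative, and the dashed line is the median of all genes at -0.19. Red points gather at low and blue points at high GC content, while the circled genes that fell spread over the range.

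The calls depended on single mice. Without control mouse A3280 the count of called genes was 39, without control mouse A3259 219, without mouse A3262 139 and without control mouse A3250 1049, against 1736 with all mice. On the centred scale the counts were 259, 370, 278 and 1042 in the same order, against 1743. The genes that passed under each of the 14 or 15 alternatives run for them, among them the leaving out of each of the 6 mice, centring and the GC correction, number 36, or 0.331% of those tested, 18 of them higher and 18 lower (0.166% each). For 30 of the 36 the call also held when the GC correction was combined with leaving out each mouse in turn. For Eloc, Eny2, Xpo6 and Zfp758 it did not hold in every such fit. Without a GC value, 1700071K01Rik and LOC667250 had no fit with the GC correction. The 36 genes are described first, by what they do.

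Several of the 18 genes that rose act in gene expression. Eif5, the initiation factor that triggers GTP hydrolysis at the start codon, had 111, 110.2 and 112 RPKM in the 24 hour hearts, against 32.9, 26.9 and 24.7 RPKM in the control hearts. The 24 hour values lay closer together than the controls and did not overlap them, with a log2 difference of 1.95 ± 0.25 (adjusted p 0.00158) and of 1.57 after GC correction. Taf15, an RNA-binding protein of the FET family that also associates with the general transcription factor TFIID, had 51.8, 85.97 and 95.02 RPKM at 24 hours, against 27.02, 33.2 and 27.9 RPKM in controls, and rose by 1.33 ± 0.21. Eny2, a subunit of the SAGA coactivator and of a complex in mRNA export, had 57.6, 57.8 and 94.4 RPKM at 24 hours, against 30.1, 24.7 and 26.7 RPKM in controls, and rose by 1.30 ± 0.21. The heterochromatin protein gene Cbx5 (30.9, 27.8 and 31.5 RPKM at 24 hours, against 14.4, 8.31 and 9.6 RPKM in controls) rose by 1.43 ± 0.23. Hmgn5, a nucleosome-binding protein gene, had 22.7, 26.8 and 41.2 RPKM at 24 hours, against 8.37, 6.09 and 5.85 RPKM in controls, and rose by 1.98 ± 0.32. For all of these the groups did not overlap, and A3262 was the highest mouse. Its library also had the lowest median of the 24 hour mice and the lowest at high GC content. The part of this in its values was not tested. Ppil4, a nuclear cyclophilin with an RNA recognition motif, had 15.5, 14.8 and 15.2 RPKM at 24 hours, against 4.74, 4.68 and 4.88 RPKM in controls, and rose by 1.49 ± 0.26, again without overlap. Impact, which inhibits the kinase Gcn2 and so acts on translation in starvation, rose by 1.14 ± 0.16, and the zinc finger gene Zfp758, at under 7 RPKM in every mouse, by 1.88 ± 0.35.

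Others that rose belong to membranes, mitochondria and protein turnover. Cox20, an assembly factor of cytochrome c oxidase, had 71.5, 86.3 and 65.5 RPKM in the 24 hour hearts, against 16.7, 14.99 and 13.04 RPKM in the control hearts. It averaged 74.4 ± 10.7 RPKM at 24 hours and 14.9 ± 1.83 RPKM in controls (SD, n = 3 each) and rose by 2.24 ± 0.37, more than any other of the 36 genes save Celf1. Eloc, the elongin C subunit that links substrate receptors to cullin ubiquitin ligases, had 75.2, 119 and 179 RPKM at 24 hours, against 36.3, 30.5 and 21.2 RPKM in controls. Its log2 difference of 1.99 ± 0.29 was 1.08 after GC correction, and A3262 was the highest mouse. Trim63, or MuRF1, a ubiquitin ligase of the sarcomere, had 268, 231 and 329.6 RPKM at 24 hours, against 122, 117 and 138 RPKM in controls, and rose by 1.12 ± 0.19, and by 1.42 after GC correction. Tfrc, the transferrin receptor through which cells take up iron, had 8.66, 18.9 and 11.96 RPKM at 24 hours, against 3.89, 3.56 and 3.28 RPKM in controls, and rose by 1.57 ± 0.22. Both groups of values were apart for each of these genes. Vesicle trafficking was represented by the SNARE Vamp4 (1.45 ± 0.25), by Ap3s1, a subunit of the AP-3 adaptor (1.87 ± 0.27), and by Lnpep, an aminopeptidase that moves with the glucose transporter in insulin-responsive vesicles (1.47 ± 0.25). The actin-bundling protein Pls3 rose by 1.08 ± 0.17 and 1700025G04Rik by 1.46 ± 0.25.

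Among the 18 genes that fell, several act in the heart muscle cell itself. Mpc1, a subunit of the mitochondrial pyruvate carrier, had 199, 90.1 and 87.9 RPKM in the 24 hour hearts, against 442, 506 and 457 RPKM in the control hearts. Every 24 hour value was under every control value, A3254 being highest of the induced mice, and the log2 difference was -1.997 ± 0.25 (adjusted p 0.00158). Its partner subunit Mpc2, chosen after its value was seen, stood at 0.07 with an adjusted p of 0.888. Pln, phospholamban, a regulator of calcium uptake into the sarcoplasmic reticulum, had 1331, 1026 and 589 RPKM in the 24 hour hearts, against 2556, 2269 and 2330.0 RPKM in the control hearts. It averaged 982 ± 373 RPKM at 24 hours and 2385 ± 151 RPKM in controls (SD, n = 3 each) and fell by 1.36 ± 0.23 on the log2 scale, and by 1.92 after GC correction. Tbx5, a T-box factor needed for heart development, had 8.5, 6.66 and 6.5 RPKM at 24 hours, against 16.96, 15.1 and 20.3 RPKM in controls, a log2 difference of -1.17 ± 0.18. Rbm24, a muscle splicing regulator, had 34.9, 26.9 and 19.5 RPKM at 24 hours, against 65.9, 78.9 and 76.8 RPKM in controls, a log2 difference of -1.45 ± 0.21. Perm1, a muscle gene that promotes mitochondrial energy metabolism, had 87.95, 84.8 and 61.5 RPKM at 24 hours, against 168, 162 and 172 RPKM in controls, a log2 difference of -1.10 ± 0.17. None of these groups overlapped, and A3262 was the lowest mouse for each of these genes. Myh8 and Myh13, myosin heavy chains of perinatal and extraocular muscle, fell by 1.58 ± 0.24 and 1.63 ± 0.24. Their values were nearly equal in each mouse, as with 8.93, 16.9 and 10.8 RPKM for Myh13 and 8.99, 18.7 and 11.6 RPKM for Myh8 at 24 hours. The myosin heavy chain genes share long near-identical stretches, so the source of their reads is uncertain.

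The largest fall of the 36 was that of Cxcl12, a chemokine made by endothelial and stromal cells. It had 18.8, 20.4 and 6.75 RPKM in the 24 hour hearts, against 67.97, 69.9 and 81.4 RPKM in the control hearts, a log2 difference of -2.32 ± 0.35 (adjusted p 0.00423). Klf2, a transcription factor that endothelial cells switch on under flow, had 10.8, 10.1 and 4.62 RPKM in the 24 hour hearts, against 31.1, 45.95 and 43.6 RPKM in the control hearts. The groups were apart for both, A3262 was lowest for both, and the log2 difference of Klf2 was -2.17 ± 0.38. The summed level of 34 endothelial markers was lower too, 422 to 506 RPKM at 24 hours, against 662 to 737 RPKM in controls, and its part in these falls was not tested. RPKM summed over all genes was lower at 24 hours as well, as given with the cell type markers below. H3f3a, a gene for the replacement histone H3.3, had 85.4, 59.8 and 46.96 RPKM at 24 hours, against 166, 179 and 193 RPKM in controls, a log2 difference of -1.51 ± 0.24. The second H3.3 gene, H3f3b, chosen after its value was seen, stood at -0.26 with an adjusted p of 0.521, and copies of the H3.3 genes can share reads. Cish, an inhibitor of cytokine receptor signalling, had 13.2, 15.7 and 9.62 RPKM at 24 hours, against 44.6, 28.8 and 28.6 RPKM in controls, a log2 difference of -1.33 ± 0.25. Ubqln1, a carrier of ubiquitinated proteins to the proteasome, had 13.2, 8.38 and 7.24 RPKM at 24 hours, against 23.1, 24.2 and 26.7 RPKM in controls, a log2 difference of -1.32 ± 0.20. The remaining genes were 1190002H23Rik (-1.74 ± 0.28), 1700071K01Rik (-2.20 ± 0.28), the phosphatase Dusp18 (-1.505 ± 0.26), Tcp11l2 (-1.07 ± 0.17), LOC667250 (-1.15 ± 0.18) and the nuclear export receptor Xpo6 (-0.99 ± 0.19). Nothing used here states a read strand, and exons of Mpc1, Pln, Cish, H3f3a, Cox20 and Eny2 overlap transcripts of the opposite strand in the vM1 annotation, so a share of their reads may come from those.

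**Figure D2:**
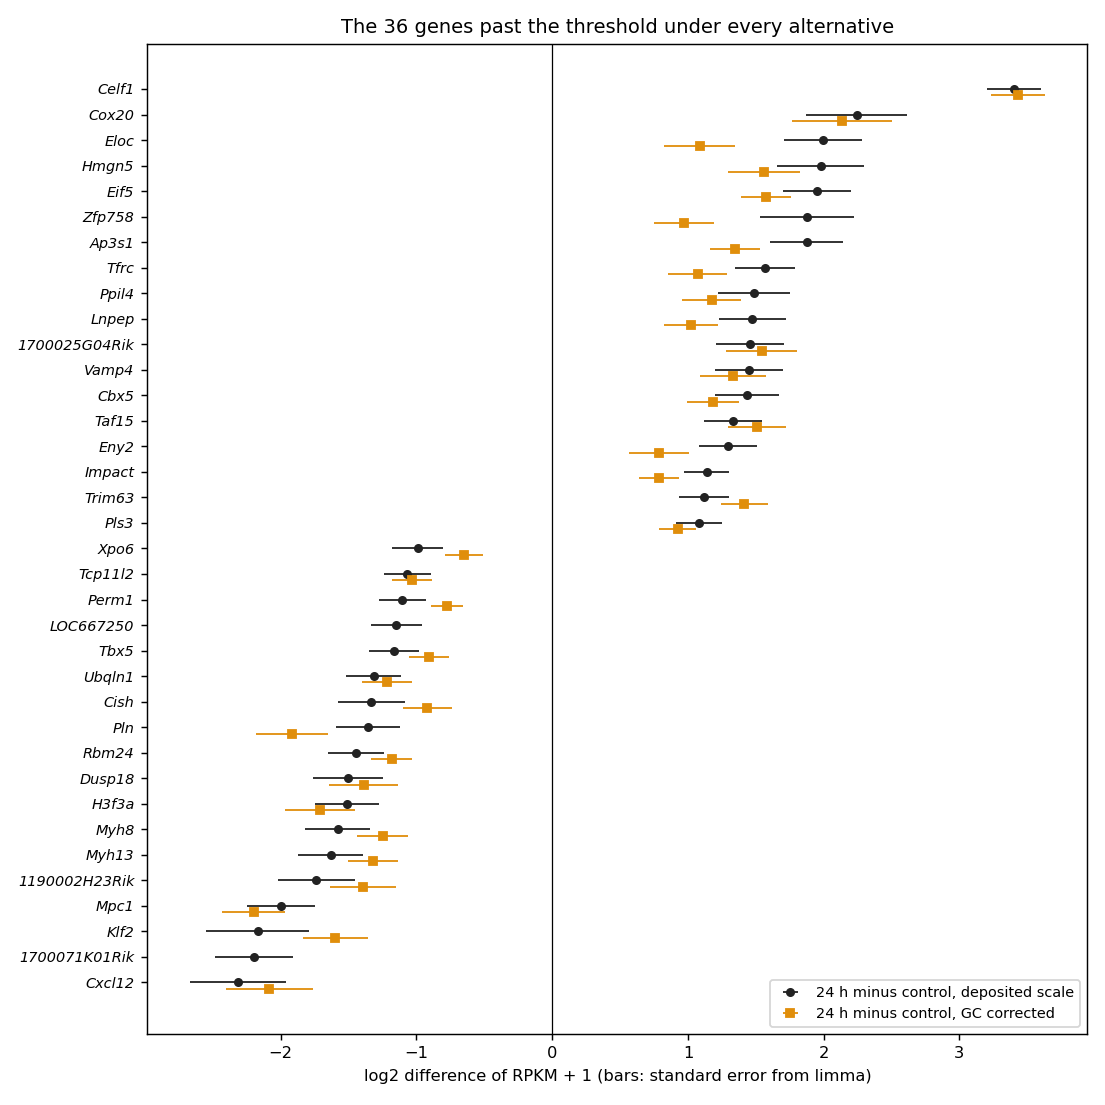
Log2 difference of RPKM + 1, 24 hours minus control, with its standard error, for the 36 genes past the threshold under every alternative run for them. Black points are on the deposited scale and orange squares follow the GC correction, which could not be run for 2 genes without a GC value. Celf1 is farthest to the right at 3.40, Cxcl12 farthest to the left at -2.32, and no gene changes sign.

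Celf1 is known to bind a GU-rich element in 3' untranslated regions, 3 copies of TGT with a T between them, so the 36 genes were searched for it and for a GU repeat, 5 copies of TG followed by T, on the strand of the transcript. Neither motif contains the other. Of the 34 with an annotated 3' untranslated region 3 hold the element, and it is shown for these genes, with 1 more for the repeat. Capitals mark the first match, in sequence of the vM1 annotation on mm9.
Cxcl12 (fell), chr6:117127100-117127128, plus strand: gtctgttttTGTTTGTTTGTttgtttgtt
Lnpep (rose), chr17:17665573-17665601, minus strand: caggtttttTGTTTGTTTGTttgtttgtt
Vamp4 (rose), chr1:164528201-164528229, plus strand: ctttagtttTGTTTGTTTGTttgtttgtt
Dusp18 (fell), chr11:3800961-3800989, plus strand: tggaaactcTGTGTGTGTGTgtgtgtgtg
Of these 4 genes, a pair rose and a pair fell. Over all genes, 397 of 10735 annotated 3' untranslated regions (3.7%) held the GU-rich element, against 5.25% of 571 genes higher and 2.24% of 759 genes lower on both scales. In the lowest GC tertile 5.82% of 498 higher and 3.64% of 55 lower genes held it, against 5.72% of all 3569 genes there. In the middle tertile 1.64% of 61 higher and 4% of 225 lower genes did, against 3.77% of all 3584. Among genes called after GC correction the order was the other way, with 1.73% of 519 higher and 4.7% of 511 lower genes. Median lengths of these regions were 1548 bases in higher and 948 in lower genes on both scales, against 1162 in all. After GC correction they were 899 and 1379 bases. The parts of base composition and length in the shares were not tested. For the GU repeat the shares were 8.93% of the higher and 5.8% of the lower genes, against 7.01% of all, and after GC correction 6.17% of the higher and 6.85% of the lower genes. A match describes these letters only and does not show binding.

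**Figure D3:**
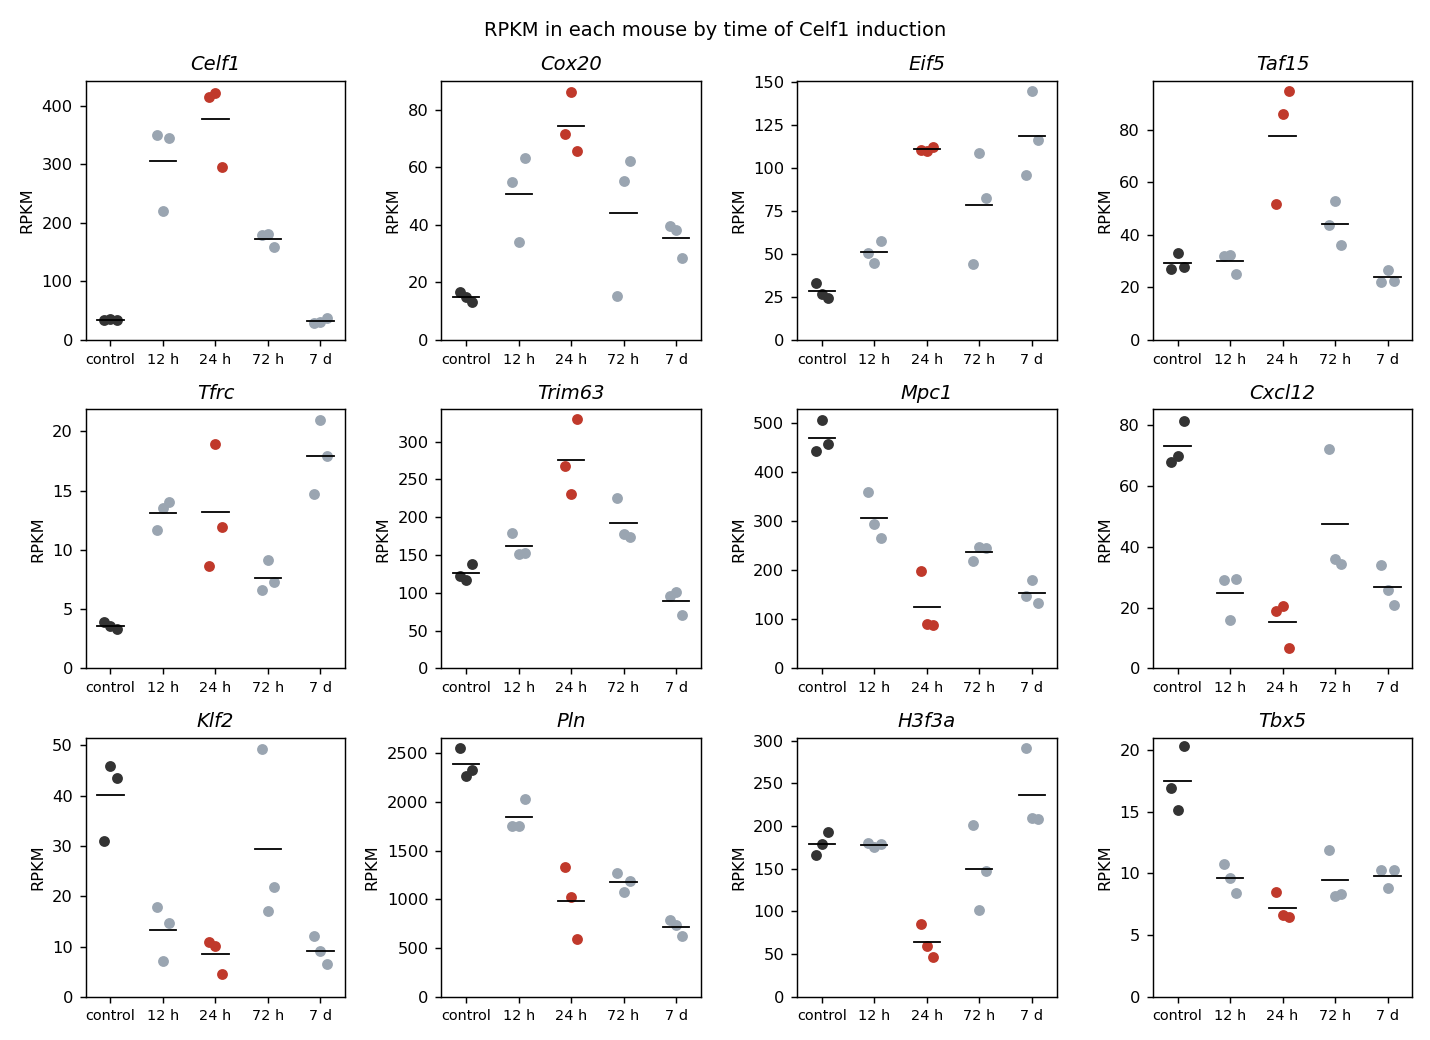
RPKM in each mouse (points) with the group mean (line) for 12 genes, from control on the left through 12 hours, 24 hours (red), 72 hours and 7 days of induction. Celf1, Cox20, Taf15 and Trim63 have their highest mean at 24 hours, and H3f3a, Mpc1, Cxcl12, Klf2 and Tbx5 their lowest.

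Set against the neighbouring times, in contrasts between induced groups, with the error taken from all 15 mice, 364 genes were higher (3.35%) and 62 lower (0.570%) at 24 hours than at 12 hours, 3.92% in all. Against 72 hours 279 were higher (2.57%) and 834 lower (7.67%), 10.2% in all. On the centred scale 178 were higher (1.64%) and 187 lower (1.72%) than at 12 hours, 3.36% in all, and 575 higher (5.29%) and 874 lower (8.04%) than at 72 hours, 13.3% in all. On the deposited scale the 426 genes against 12 hours were 95 without A3277 and 99 without A3276 of the 12 hour group, and the 1113 against 72 hours were 474 without A3262 and 741 without A3278. With only the 6 mice of each contrast in the fit the counts were 134 and 270. The 36 genes were chosen for 24 hour values far from control, which favours values farther from control at 24 hours than at other times, so their levels at those times are given as a description. H3f3a had 85.4, 59.8 and 46.96 RPKM at 24 hours, against 180.5, 175 and 179 at 12 hours and 201, 102 and 147 at 72 hours, with log2 differences of -1.505 and -1.21. Taf15, at 51.8, 85.97 and 95.02 RPKM at 24 hours, had 32.1, 32.3 and 25.2 at 12 hours and 43.8, 52.8 and 36.03 at 72 hours. Mpc1 had log2 differences of -1.38 against 12 hours and -1.02 against 72 hours. Of the 3 mice at 72 hours A3278, the one with the code of the controls, lay beyond the control range in the direction of the 24 hour mice for 23 of the 36 genes, against 36 in A3281 and 33 in A3264. Its 72.2 RPKM of Cxcl12 lay within the control values and its 49.2 RPKM of Klf2 above them. Of the 575 genes that rose on both scales without overlap, 56.2% were beyond the control range in A3278, 91.8% in A3281 and 84.5% in A3264. Of the 761 that fell the shares were 40.6%, 92% and 86.9%. These genes too were chosen by their distance from the same controls, and the share over all genes was not counted.

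Among SR and hnRNP protein genes more rose than fell, and among muscle splicing regulators more fell than rose. Each list is to be read against all genes, of which 5.38% rose and 10.6% fell, with a median of -0.19. Counts in brackets are at an unadjusted p under 0.05, which 10.3% of all genes met as higher and 25.3% as lower. For every list gene given with its values in each mouse, the chemokine gene Ccl6 apart, the groups did not overlap, as in 46.8% of all genes. Of 30 SR and hnRNP protein genes, which bind nascent RNA and direct splice site choice, 9 rose and 1 fell (13 and 2), with a median of 0.28. Among them 13 were higher and 1 lower on the centred scale, and 6 higher and 2 lower with the GC correction. Hnrnph1 had 79.5, 98.00 and 90.6 RPKM at 24 hours, against 53.1, 54.6 and 46.9 RPKM in controls, and rose by 0.78 ± 0.17. Hnrnpul2 had 51.5, 81.5 and 76.2 RPKM at 24 hours, against 40.4, 41.4 and 41.6 RPKM in controls, and rose by 0.72 ± 0.19, and Hnrnpr rose by 0.56 ± 0.15. These 3 passed after GC correction. Hnrnpa2b1 rose by 0.79 ± 0.18 but stood at 0.24 with that correction (adjusted p 0.422). Srsf2 fell by 1.70 ± 0.46, with 33.3, 33.5 and 7.25 RPKM at 24 hours, against 63.9, 70.7 and 71.3 RPKM in controls, where A3262 was far under the other induced mice. Without A3262 the counts were 0 higher and 0 lower (13 and 1), and without A3280 0 higher and 0 lower (11 and 2). Of 18 regulators of muscle splicing, 2 rose and 5 fell (2 and 9), with a median of -0.38. With the GC correction 1 was higher and 6 were lower. Celf1 and Tial1 (1.002 ± 0.25) were those that rose. Besides Rbm24 the splicing regulator Rbpms was among those that fell, with 56.5, 47.6 and 37.6 RPKM at 24 hours, against 109, 100.4 and 113 RPKM in controls, a log2 difference of -1.19 ± 0.23. Rbm38 (-1.14 ± 0.28) and Rbfox1 (-0.88 ± 0.26) fell as well. Without A3262 the counts were 1 higher and 1 lower (2 and 6), and without A3280 1 higher and 1 lower (2 and 7).

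Of 43 genes of mRNA decay, 4 rose and 7 fell (6 and 11), with a median of -0.24. Upf2, a core factor of nonsense-mediated decay, had 12.2, 11.9 and 14.1 RPKM at 24 hours, against 5.58, 5.97 and 5.33 RPKM in controls, and rose by 1.05 ± 0.19, and the deadenylase subunit Cnot7 rose by 0.81 ± 0.22. Zfp36 and Zfp36l1, which bring AU-rich mRNAs to deadenylation, stood at -1.15 ± 0.33 and -0.94 ± 0.28, and the decapping cofactor Edc4 at -0.81 ± 0.20. Of the list 5 were higher and 5 lower on the centred scale, and 2 higher and 4 lower with the GC correction, and without A3280 the counts were 0 higher and 0 lower (4 and 9).

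The translation initiation factor genes past the test were mostly higher. Of 51 genes on this list 9 rose and 1 fell (12 and 6), with a median of 0.04. Of these factors 10 were higher and 1 lower on the centred scale, and 6 higher and 1 lower with the GC correction. Apart from Eif5, Eif4e, the cap-binding factor, had 103, 151 and 174 RPKM at 24 hours, against 56.2, 56.5 and 63.3 RPKM in controls, and rose by 1.23 ± 0.22, though its 0.78 after GC correction did not pass (adjusted p 0.058). Eif3j had 52.9, 78.05 and 69.2 RPKM at 24 hours, against 24.7, 21.98 and 21.9 RPKM in controls, and rose by 1.49 ± 0.29, Eif1a rose by 1.36 ± 0.27, Eif3a by 0.82 ± 0.19 and Eif5b by 0.92 ± 0.22, and these passed after GC correction. Eif3i fell by 0.73 ± 0.20. Without A3262 the counts were 4 higher and 0 lower (11 and 2), and without A3280 2 higher and 0 lower (10 and 3). Of 76 cytosolic ribosomal protein genes 1 rose and 5 fell (3 and 17), the median being -0.28, and Rpl22 was the gene that rose (0.76 ± 0.24). Rpl41, with 343, 245 and 166 RPKM at 24 hours, against 818, 1031 and 793 RPKM in controls, had a log2 difference of -1.86 ± 0.36. The share that fell, 6.58%, was below that of all genes. Centring and the GC correction each gave 5 ribosomal protein genes higher and 3 lower. The ribosomal protein genes have many copies in the genome, so reads may be shared. Of 16 elongation and termination genes 2 rose and 1 fell (4 and 2), with a median of -0.03.

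Of the chaperones of the endoplasmic reticulum several rose, while those of the cytosol had both rises and falls. Of 38 genes of the endoplasmic reticulum list 5 rose and 0 fell (8 and 4), with a median of -0.05, and 10 were higher and 0 lower on the centred scale, and 4 higher and 0 lower with the GC correction. Hspa5, or BiP, the main Hsp70 of that compartment, had 182, 168 and 226 RPKM at 24 hours, against 129.6, 145 and 113 RPKM in controls, and rose by 0.57 ± 0.17. Its partner chaperone Hsp90b1 had 119.5, 109.6 and 125 RPKM at 24 hours, against 83.5, 77.9 and 59.2 RPKM in controls, and rose by 0.69 ± 0.20. Pdia3, a disulfide isomerase for glycoproteins, had 71.7, 82.97 and 92.4 RPKM at 24 hours, against 53.7, 47.2 and 41.04 RPKM in controls, and rose by 0.79 ± 0.17, and Sec63 by 0.76 ± 0.22. No group overlapped for these. Without A3262 the counts were 0 higher and 0 lower (7 and 2), without A3280 0 higher and 0 lower (5 and 3) and without A3259 0 higher and 0 lower (8 and 4), all in limma. The stress element through which Atf6 acts on such genes, CCAAT and CCACG with 9 bases of any kind between them, was searched on both strands from 250 bases before to 50 bases after each RefSeq gene start on GRCm38.p6. It was found in 8 of 33 promoters of the list and in 0.184% of the 8707 promoters that matched the 10868 tested genes. The element is known from such genes, so this share describes the list and not the change at 24 hours. The sites of the 5 of these 8 genes that were higher on the centred scale are shown along the strand of each gene, 1 site a gene. Of the whole list, 10 of 38 genes were higher on that scale. Of the 8 genes 2 were higher on the deposited scale and 3 with the GC correction. The sites are printed with the fixed letters in capitals.
Hspa5, chr2:34772020-34772048, plus strand: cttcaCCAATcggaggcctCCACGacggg
Hsp90b1, chr10:86705633-86705661, minus strand: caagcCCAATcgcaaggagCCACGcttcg
Calr, chr8:84847070-84847098, minus strand: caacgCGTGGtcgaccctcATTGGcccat
Canx, chr11:50325795-50325823, minus strand: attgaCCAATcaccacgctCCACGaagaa
Pdia6, chr12:17266486-17266514, plus strand: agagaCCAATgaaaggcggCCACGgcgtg
In Calr the element reads on the strand opposite to the gene. The log2 differences on the centred scale were 0.75 for Hspa5, 0.87 for Hsp90b1, 0.50 for Calr, 0.63 for Canx and 0.55 for Pdia6, with adjusted p of 0.0176, 0.0221, 0.0438, 0.0419 and 0.0478 in limma. On the deposited scale Calr (adjusted p 0.263), Canx (0.0792) and Pdia6 (0.2501) did not pass, and with the GC correction Canx (0.358) and Pdia6 (0.0786) did not. Creld2, Syvn1 and Ero1lb hold the element too and did not pass, at -0.13, -0.38 and -0.08 on the centred scale. The consensus of heat shock factor binding, GAA, TTC and GAA with 2 bases of any kind between them, was in 0.436% of all promoters and in 3 of 32 of the heat shock list. A match to either describes these letters only and does not show that a factor bound or acted.

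Among 40 genes of the heat shock list 5 rose and 8 fell (9 and 11), with a median of -0.08, and 8 were higher and 7 lower on the centred scale, and 5 higher and 6 lower with the GC correction. The inducible Hsp70 genes Hspa1a and Hspa1b fell by 1.51 ± 0.35 and 1.59 ± 0.35, with 6.66, 9.12 and 5.62 RPKM at 24 hours, against 13.2, 34.8 and 26.7 RPKM in controls for Hspa1b. They are near-identical, so their reads cannot be told apart. Their cofactor Dnajb1 had 10.6, 10.9 and 9.39 RPKM at 24 hours, against 18.2, 30.3 and 22.7 RPKM in controls, a log2 difference of -1.10 ± 0.21. Of the small heat shock proteins that protect muscle filaments, Hspb8 had 166, 146 and 121 RPKM at 24 hours, against 238, 296 and 332 RPKM in controls, a log2 difference of -0.99 ± 0.19. Cryab had 1624, 1585 and 1055 RPKM at 24 hours, against 2301, 2434 and 2739 RPKM in controls, a log2 difference of -0.83 ± 0.24, and Bag3, the partner of Hspb8, stood at -0.85 ± 0.25. A3262 was the lowest mouse for these 3 genes. Other Hsp40 cochaperones rose. Dnajb4 had 74.7, 64.1 and 81.2 RPKM at 24 hours, against 37.9, 35.8 and 22.3 RPKM in controls, and rose by 1.20 ± 0.23. Dnajb6 had 46.1, 49.7 and 60.1 RPKM at 24 hours, against 31.7, 27.1 and 15.9 RPKM in controls, and rose by 1.08 ± 0.22, with Dnaja1 rising by 0.69 ± 0.21 and Dnaja2 by 0.67 ± 0.19. After GC correction Hspa1a, Hspa1b, Dnajb1, Hspb8, Cryab, Dnajb4 and Dnajb6 passed, while Bag3, Dnaja1 and Dnaja2 did not. Without A3280 the counts were 0 higher and 0 lower (7 and 10), and without A3262 1 higher and 2 lower (9 and 10).

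**Figure D4:**
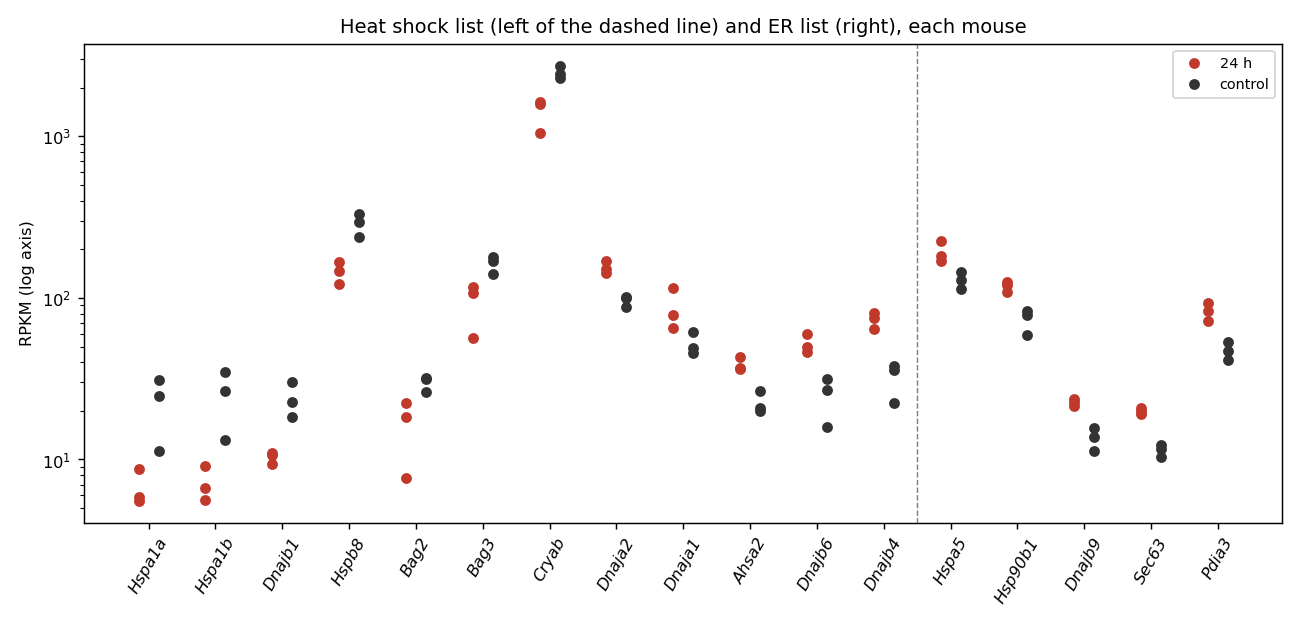
RPKM on a log axis in each mouse at 24 hours (red, left of each pair) and in controls (black, right) for 12 genes of the heat shock list and 5 of the endoplasmic reticulum list. The 24 hour points lie below the controls in the 7 genes from Hspa1a to Cryab and above them in the other 10.

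Among regulators of heart gene expression the genes past the test were lower. Of 24 cardiac transcription factor genes 0 rose and 7 fell (1 and 15), with a median of -0.66, and 0 were higher and 5 lower on the centred scale, and 0 higher and 4 lower with the GC correction. Besides Tbx5, Gata4 had 16.5, 21.2 and 9.21 RPKM at 24 hours, against 25.2, 27.1 and 37.1 RPKM in controls, a log2 difference of -0.94 ± 0.29. Hand2 had 11.9, 19.8 and 9.83 RPKM at 24 hours, against 26.9, 44.8 and 39.7 RPKM in controls, a log2 difference of -1.39 ± 0.37, and Myocd, the coactivator of serum response factor, stood at -0.71 ± 0.20. Tbx5 and Myocd passed after GC correction, and Gata4 and Hand2 did not. Of 12 Kruppel-like factor genes 0 rose and 4 fell (0 and 9), with a median of -0.69. After Klf2 came Klf4, like it active in endothelial cells, with 11.1, 11.3 and 6.29 RPKM at 24 hours, against 19.8, 23.5 and 23.01 RPKM in controls, a log2 difference of -1.17 ± 0.28. Klf9, a target of glucocorticoid and thyroid hormone, had 28.9, 24.2 and 17.1 RPKM at 24 hours, against 47.3, 45.04 and 43.7 RPKM in controls, a log2 difference of -0.95 ± 0.23. Of 24 immediate early genes 0 rose and 8 fell (0 and 11), with a median of -0.57. Jun, a subunit of AP-1, had 21.6, 22.1 and 9.54 RPKM at 24 hours, against 38.4, 49.3 and 47.4 RPKM in controls, a log2 difference of -1.37 ± 0.29. Dusp1, a phosphatase that switches off MAP kinases, had 21.6, 17.9 and 20.1 RPKM at 24 hours, against 41.2, 52.4 and 47.1 RPKM in controls, a log2 difference of -1.20 ± 0.25. With the GC correction 4 Kruppel-like factors were lower, and 2 immediate early genes were higher and 3 lower. Without A3280 the counts were 0 higher and 1 lower (1 and 12) among cardiac factors, 0 higher and 1 lower (0 and 8) among Kruppel-like factors and 0 higher and 0 lower (0 and 10) among immediate early genes.

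Calcium handling genes changed in both directions. Of 34 genes 5 rose and 5 fell (6 and 9), with a median of -0.13, and 6 were higher and 3 lower on the centred scale, and 5 higher and 3 lower with the GC correction. Besides Pln, Camk2d, the calmodulin kinase of the heart, had 44.6, 27.8 and 31.1 RPKM at 24 hours, against 54.1, 55.2 and 59.5 RPKM in controls, a log2 difference of -0.72 ± 0.20, and the T-type channel Cacna1g stood at -0.85 ± 0.21. Itpr1, an inositol trisphosphate receptor, had 13.1, 14.1 and 11.9 RPKM at 24 hours, against 6.58, 6.97 and 6.22 RPKM in controls, and rose by 0.88 ± 0.17, by 1.06 after GC correction. Asph, whose locus also encodes junctin and junctate, had 183, 305 and 256 RPKM at 24 hours, against 132, 125 and 114 RPKM in controls, and rose by 0.96 ± 0.21. Atp2b1, a calcium pump of the plasma membrane, rose by 0.73 ± 0.15 and Calm2, a calmodulin gene with near-identical copies, by 0.84 ± 0.19. Without A3280 the counts were 0 higher and 1 lower (6 and 6), and without A3262 1 higher and 1 lower (6 and 6). Of 26 ion channel and connexin genes 0 rose and 6 fell (0 and 10), with a median of -0.33. The pore subunit of the ATP-sensitive potassium channel, Kcnj11, had 34.6, 26.97 and 15.9 RPKM at 24 hours, against 48.5, 54.1 and 59.3 RPKM in controls, a log2 difference of -1.09 ± 0.23. Abcc8, a sulfonylurea receptor that assembles with it, had 7.79, 8.13 and 7.38 RPKM at 24 hours, against 13.98, 15.8 and 14.4 RPKM in controls, a log2 difference of -0.84 ± 0.18. After GC correction 1 channel gene was lower, Kcnj11, and 2 were higher in limma. Without A3262 the counts were 0 higher and 0 lower (0 and 7), and without A3280 0 higher and 0 lower (0 and 8).

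Of 43 sarcomere and Z-disc genes 2 rose and 8 fell (3 and 13), with a median of -0.29. Nexn, or nexilin, an actin-binding protein of the Z-disc, had 262, 251 and 334 RPKM in the 24 hour hearts, against 123, 91.8 and 81.02 RPKM in the control hearts, and rose by 1.52 ± 0.28. Xirp2 rose by 1.01 ± 0.30. Ldb3, or Cypher, had 283, 272 and 197 RPKM at 24 hours, against 437, 446 and 535 RPKM in controls, a log2 difference of -0.92 ± 0.24, and the myosin light chain kinase Mylk3 stood at -0.69 ± 0.16. Troponin I, Tnni3, had 4099, 3231 and 2011 RPKM at 24 hours, against 4803, 5211 and 5406 RPKM in controls, a log2 difference of -0.78 ± 0.25 that did not pass after GC correction (adjusted p 0.156). In this list 4 were higher and 5 lower on the centred scale, and 4 higher and 3 lower with the GC correction. Leaving out A3280 gave 0 higher and 0 lower (2 and 11). Of 14 natriuretic peptide and fetal genes, 1 rose and 4 fell (1 and 5). Centring left 1 of these genes higher and 4 lower, and the GC correction 1 higher and 2 lower. Nppa, the atrial natriuretic peptide gene, had 129, 111 and 64.8 RPKM at 24 hours, against 36.3, 49.4 and 40.1 RPKM in controls, and rose by 1.21 ± 0.37. Corin, the protease that activates it, had 19.7, 21.03 and 21.9 RPKM at 24 hours, against 44.97, 38.9 and 37.8 RPKM in controls, a log2 difference of -0.93 ± 0.18, and the receptors Npr1 and Npr2 stood at -0.62 ± 0.19 and -0.70 ± 0.17. Without A3262 the counts were 0 higher and 2 lower (1 and 4), and Nppa passed in no fit that left out 1 of the 6 mice.

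Of 38 genes of fatty acid uptake and oxidation 0 rose and 8 fell (0 and 13), with a median of -0.31. On the centred scale 0 were higher and 3 lower, and with the GC correction 0 higher and 3 lower. Leaving out A3280 gave 0 higher and 0 lower (0 and 11), and leaving out A3262 0 higher and 1 lower (0 and 9). The short-chain dehydrogenase Acads had 104, 60.2 and 43.4 RPKM at 24 hours, against 134, 138 and 191 RPKM in controls, a log2 difference of -1.22 ± 0.27. Cpt2, the inner carnitine palmitoyltransferase, had 98.4, 69.3 and 64.1 RPKM at 24 hours, against 132, 147 and 149 RPKM in controls, a log2 difference of -0.90 ± 0.17. Of 37 genes of glucose and pyruvate metabolism 2 rose and 3 fell (3 and 9). The share that fell was 8.11%, below that of all genes. Centring left 2 of these genes higher and 3 lower, and the GC correction 3 higher and 1 lower. Besides Mpc1, the insulin-responsive transporter Slc2a4 stood at -0.79 ± 0.19 and Pdk2, which inhibits pyruvate dehydrogenase, at -0.84 ± 0.20, while the dehydrogenase subunit Dld rose by 0.75 ± 0.18. Of 84 genes of oxidative phosphorylation 7 rose and 7 fell (11 and 16), with a median of -0.17, and 10 were higher and 4 lower on the centred scale, and 11 higher and 4 lower with the GC correction. The share that fell, 8.33%, was below that of all genes. Uqcrb, a subunit of complex III, had 935, 737 and 839 RPKM in the 24 hour hearts, against 348, 205 and 222 RPKM in the control hearts, and rose by 1.73 ± 0.34. Ndufb3 (0.77 ± 0.21) and Ndufa12 (0.80 ± 0.25) of complex I rose, while Sdhc of complex II had 228, 178 and 109 RPKM at 24 hours, against 412, 386 and 399 RPKM in controls, a log2 difference of -1.28 ± 0.26, and Cox7a2 of complex IV stood at -1.02 ± 0.29. Without A3280 the counts were 1 higher and 0 lower (9 and 12), and without A3262 2 higher and 0 lower (10 and 10). Of 32 antioxidant genes 0 rose and 6 fell (2 and 11). Centring left 1 of these genes higher and 6 lower, and the GC correction 2 higher and 3 lower. Gpx4, which removes lipid peroxides, had 523, 296 and 174 RPKM at 24 hours, against 698, 676 and 751 RPKM in controls, a log2 difference of -1.24 ± 0.28. The quinone reductase Nqo1 had 26.5, 18.03 and 13.1 RPKM at 24 hours, against 37.4, 35.6 and 38.4 RPKM in controls, a log2 difference of -0.97 ± 0.20. With A3280 left out the counts were 0 higher and 0 lower (0 and 11).

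Lists of protein breakdown and chromatin follow. Of 40 proteasome genes 0 rose and 1 fell (2 and 7), with a median of 0.02. Of 24 Foxo factor and muscle ubiquitin ligase genes 1 rose and 2 fell (3 and 6). Centring left 1 of these genes higher and 2 lower, and the GC correction 2 higher and 1 lower. On the deposited scale the genes were as follows. Trim63 rose, and the factors Foxo3 (-0.79 ± 0.21) and Foxo4 (-0.94 ± 0.20, with 17.5, 15.1 and 9.85 RPKM at 24 hours, against 23.7, 27.2 and 31.7 RPKM in controls) fell. Of 26 cullin and elongin genes 4 rose and 2 fell (7 and 5). Centring left 4 of these genes higher and 2 lower, and the GC correction 1 higher and 1 lower. Elongin C rose as given above, and Cul3 (54.5, 41.00 and 46.3 RPKM at 24 hours, against 24.4, 20.01 and 18.2 RPKM in controls) rose by 1.14 ± 0.29, while Elob, elongin B, had 144, 80.1 and 50.3 RPKM at 24 hours, against 180.3, 178 and 200.5 RPKM in controls, a log2 difference of -1.14 ± 0.30. Of 28 high mobility group and histone-related genes 6 rose and 4 fell (9 and 6), with a median of -0.12, and 8 were higher and 2 lower on the centred scale, and 3 higher and 1 lower with the GC correction. Hmgb3 had 44.8, 86.8 and 58.7 RPKM at 24 hours, against 33.2, 25.4 and 20.7 RPKM in controls, and rose by 1.20 ± 0.27, Hmgb1 rose by 0.68 ± 0.17, and the Polycomb subunits Eed and Suz12 rose by 0.87 ± 0.20 and 0.70 ± 0.19. Leaving out A3280 gave 1 higher and 1 lower (7 and 5).

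In 2 further lists the nuclear receptors and the matrix were counted. Of 26 nuclear receptors and partners in energy metabolism 0 rose and 5 fell (0 and 15). Centring left 0 of them higher and 4 lower, and the GC correction 2 higher and 1 lower. The orphan receptor Nr4a1 had 2.68, 5.01 and 3.64 RPKM at 24 hours, against 7.38, 13.96 and 10.5 RPKM in controls, a log2 difference of -1.27 ± 0.34. The coactivator Pprc1 had 3.03, 3.72 and 2.06 RPKM at 24 hours, against 5.46, 5.53 and 5.93 RPKM in controls, a log2 difference of -0.78 ± 0.21, and neither was past the test after GC correction. With A3280 left out the counts of this list were 0 higher and 1 lower (0 and 9). Of 43 matrix and collagen genes 0 rose and 4 fell (0 and 11). Centring left 0 of these genes higher and 3 lower, and the GC correction 1 higher and 1 lower. Ctgf, a matrix protein of growth factor signalling, had 23.9, 25.6 and 8.7 RPKM at 24 hours, against 39.7, 30.4 and 51.1 RPKM in controls, a log2 difference of -1.12 ± 0.36. Mmp2, a gelatinase, had 23.5, 24.6 and 15.2 RPKM at 24 hours, against 36.9, 41.3 and 32.9 RPKM in controls, a log2 difference of -0.81 ± 0.21. The share of matrix genes that fell, 9.30%, was below the 10.6% of all genes. Among the matrix genes the counts without A3280 were 0 higher and 0 lower (0 and 7).

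Markers of other cell types were counted as well. Of 33 endothelial marker genes 0 rose and 7 fell (0 and 19), with a median of -0.51, among them Eng at -0.82 ± 0.21 and Sox18 (15.1, 10.4 and 3.83 RPKM at 24 hours, against 22.1, 23.4 and 31.98 RPKM in controls) at -1.47 ± 0.37, beside Klf2 and Klf4. Their summed level is given above with Cxcl12 and Klf2, and without A3280 the counts were 0 higher and 1 lower (0 and 9). Centring left 0 of the endothelial markers higher and 5 lower, and the GC correction 0 higher and 3 lower. The sum of 18 fibroblast markers was 835 to 1212 RPKM at 24 hours, against 1461 to 1667 RPKM in controls, that of 14 smooth muscle and pericyte markers 768 to 1019.9 RPKM at 24 hours, against 1268 to 1375 RPKM in controls, and that of 7 red blood cell markers 1118 to 1550.4 RPKM at 24 hours, against 1931 to 3235 RPKM in controls. By the test 0 of 18 fibroblast genes rose and 1 fell (5.56%), and 0 of 14 smooth muscle and pericyte genes rose and 2 fell (14.3%). Among 5 red blood cell genes tested 0 rose and 0 fell. RPKM summed over all genes was lower too, 350383 to 413394 in the columns at 24 hours, against 443745 to 458723 in controls. Its part in the marker sums was not tested. The 15 cardiomyocyte markers, which define the labelled tissue, also summed to less, 47370.5 to 63165 RPKM at 24 hours, against 69929 to 72176 RPKM in controls, and of 15 tested 0 rose and 2 fell. Macrophage markers (23) summed to 151 to 246 RPKM at 24 hours, against 161 to 193 RPKM in controls, with overlapping groups, and of 22 tested 1 rose, Mrc1 (0.69 ± 0.17). Of these markers, lymphocyte and neutrophil genes were nearly absent, 2.53 to 7.04 RPKM at 24 hours, against 2.48 to 4.66 RPKM in controls over 21 genes, 2 of them at 0 in all 6 mice. The atrial markers (10) summed to 394 to 469 RPKM at 24 hours, against 379.6 to 404 RPKM in controls.

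**Figure D5:**
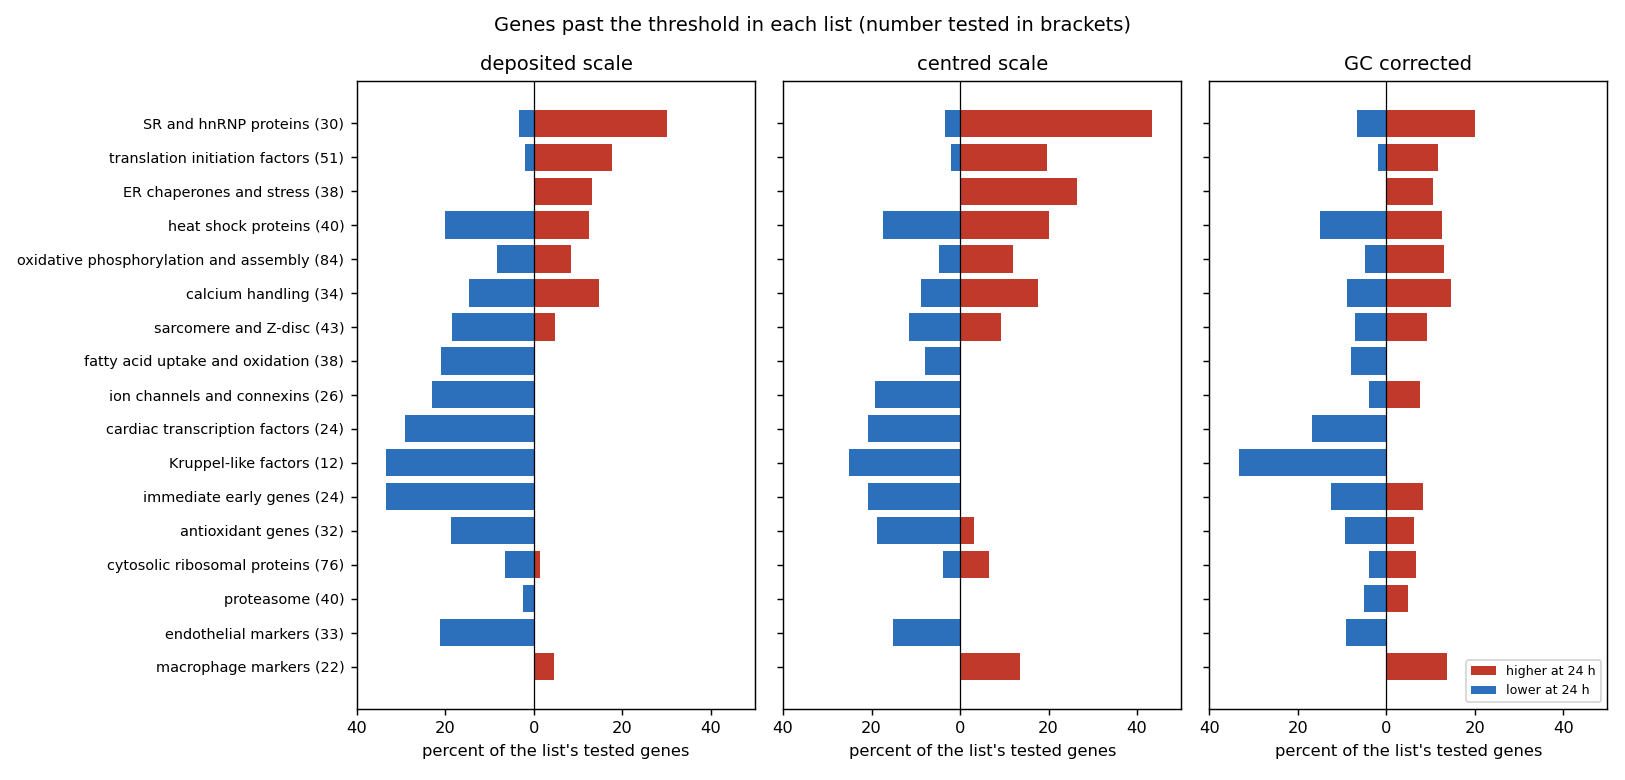
Percent of the tested genes of 17 lists that were higher (red, right of 0) or lower (blue, left of 0) at 24 hours than in controls, on the deposited scale, the centred scale and after GC correction. The SR and hnRNP, initiation factor and endoplasmic reticulum lists lean to the right and the Kruppel-like and cardiac factor lists to the left in all 3 panels. In the ion channel list lower genes outnumber higher ones on the first pair of scales only. Muscle splicing regulators, with more genes lower than higher on each scale, are not shown. Of all genes 5.38% were higher and 10.6% lower on the deposited scale. The shares were 8.99% and 7.05% on the centred scale and 4.88% and 4.72% after GC correction.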

How the data were processed

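The submitters' processing notes name TopHat, Bowtie and mm9, and the labels used here state no version, counting tool or read strand. The authors deposited RPKM for 16042 genes in 20 columns. Columns of 1 mouse were averaged, and no counts were rebuilt. Differences on the log2(RPKM + 1) scale understate the change of low genes. One limma fit (3.58.1, R 4.3.3, lmFit and eBayes with trend) on log2(RPKM + 1) held 15 mice in 5 groups, for 10868 genes averaging 1 RPKM or more, with Benjamini-Hochberg adjustment over all of them. P-values measure the spread between mice. On simulated data of 10868 genes the fit called 74 of 100 genes changed by 1 log2 unit and 100 of 100 changed by 2. It made 10 false calls among the genes left unchanged. The noise was independent for each gene, with no GC slope and no shift between libraries or codes. The simulation therefore does not give the rate of false calls in these data. Depth was estimated from 90 olfactory receptor genes of 1 exon, and 60 of 60 simulated estimates lay within 5%. The GC correction used a lowess span of 0.3. No mice are paired, since mouse numbers are not shared between groups.

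Genes named are Celf1, the 15 largest rises and falls called without overlap on both scales, those past every alternative, up to 4 members per list with the smallest p, list members called on both scales, and markers, and a part of these is given. The comparison and the lists (45, of whose 1351 genes 1284 were found and 67 are not analysed here) were chosen with earlier results of these data known. Newer symbols replace older ones, such as Cugbp1 (Celf1), Tceb1 (Eloc), Tceb2 (Elob), Nsbp1 (Hmgn5), Brp44l (Mpc1), 2310042D19Rik (Perm1) and Sfrs2 (Srsf2). Positions, GC content and untranslated regions come from GENCODE vM1 and promoters from RefSeq.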

Additional observations from a re-analysis of the deposited data

Results flagged for a closer look

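For 20 of the 36 genes past every alternative the change at 24 hours differed from that at a neighbouring time on both scales, in limma contrasts between induced groups, with the error taken from all 15 mice. These genes were chosen for 24 hour values far from control, which favours such differences, so the values are a description. Of all genes 3.92% differed from 12 hours and 10.2% from 72 hours on the deposited scale. On the centred scale the shares were 3.36% and 13.3%. The share of all genes that differed from either time on both scales was not counted. The values are log2 differences on the deposited scale, 24 hours minus the other time. Further from control at 24 hours than at both neighbours were Eny2 (1.27 against 12 hours and 1.25 against 72 hours), H3f3a (-1.50 and -1.21), LOC667250 (-0.75 and -0.72), Mpc1 (-1.38 and -1.02), Taf15 (1.31 and 0.77) and Ubqln1 (-0.88 and -1.23). Impact was 1.11 higher than at 12 hours and stood at -0.79 against 72 hours, so it was higher still at the later time. Against 12 hours Cish (-1.23), Pln (-0.98) and Tcp11l2 (-0.90) also differed.

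Against 72 hours the genes that differed were Celf1 (1.11), 1700025G04Rik (1.54), Hmgn5 (1.11), Vamp4 (0.97) and Cbx5 (0.95), all higher at 24 hours, and 1700071K01Rik (-1.84), Cxcl12 (-1.62), Klf2 (-1.60), 1190002H23Rik (-1.13) and Xpo6 (-0.60), all lower. Mouse A3278 of the 72 hour group, which has the controls' code, holds the highest 72 hour value of Cxcl12 and Klf2. Groups of 3 are too small for an outlier test.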

How the results depend on the processing

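Celf1 kept its rise under every alternative run, at 3.31 to 3.59. The 1736 genes changed at 24 hours were 1056 with no filter on low values and 1039 with the GC correction. Leaving out a mouse gave 39 genes (control A3280) to 1836 (A3254), with 139 without A3262, 219 without control A3259 and 1049 without control A3250. This dependence on single mice is a limit. A further limit is the column code, whose effects cannot be told apart from those of the group. On the centred scale the 1743 genes changed were 1039 with the GC correction and 259 (control A3280) to 1830 (A3254) with a mouse left out, with 278 without A3262, 370 without control A3259 and 1042 without control A3250. Between 24 and 12 hours the 426 genes were 754 with the GC correction (382 higher, 372 lower), 134 with only the 6 mice compared, 229 with the first column of each mouse and 95 (A3277) to 592 (A3254) with a mouse left out, with 99 without A3276, 142 without A3258 and 214 without A3262. Between 24 and 72 hours the 1113 genes were 1936 with the GC correction (834 higher, 1102 lower), 270 with only the 6 mice compared and 474 (A3262) to 1223 (A3254) with a mouse left out, with 741 without A3278. Centring with the GC correction, added after the data were seen, also gave 754 and 1936. Centring moved the split of 24 against 12 hours from 364 and 62 to 178 and 187. Leaving out a mouse also makes its group smaller, and the cause of the changes in these counts was not tested. Of 219 named genes past the threshold 36 passed under every alternative, while 182 were lost without control A3280, 164 without A3262, 149 without control A3259, 89 with the GC correction and 75 without a filter. With the GC correction and a mouse left out together, Dnajb9 reversed to -0.017 without A3277 and Hcn2 to 0.013 without control A3280. The pseudocount, a stricter filter, quantile scaling and a robust fit moved none of these 4 totals by over 1.5 times where each was run. No paired analysis was possible because the groups share no mouse numbers. No read counts were given, so counting error, largest in short genes near 1 RPKM, is known only through the estimated depth.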

Other observations

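Other lists with calls at 24 hours concern signalling. Of 20 circadian clock genes 0 rose and 7 fell (2 and 12), with a median of -0.52. Counts in brackets are at an unadjusted p under 0.05. The repressor Nr1d1 had 12.9, 10.5 and 9.22 RPKM at 24 hours, against 25.9, 23.7 and 20.99 RPKM in controls, a log2 difference of -1.05 ± 0.29. Bhlhe41, another clock repressor, had 5.21, 6.16 and 2.25 RPKM at 24 hours, against 7.5, 11.54 and 11.02 RPKM in controls, a log2 difference of -1.05 ± 0.29. On the centred scale 3 clock genes were higher and 3 lower, and with the GC correction 3 higher and 2 lower. Nothing used here states the time of day of harvest. Of 24 adrenergic signalling genes 0 rose and 4 fell (2 and 11). Centring left 2 of these genes higher and 3 lower, and the GC correction 1 higher and 1 lower. Adrb1, the main adrenergic receptor of heart muscle, had 2.67, 3.49 and 0.695 RPKM at 24 hours, against 5.26, 6.22 and 8.73 RPKM in controls, a log2 difference of -1.33 ± 0.37, and the phosphodiesterase Pde4a had 24.7, 20.9 and 12.4 RPKM at 24 hours, against 35.4, 41.9 and 42.4 RPKM in controls, a log2 difference of -1.06 ± 0.23. Of 18 glucocorticoid-responsive genes 1 rose, Fkbp5 (18.4, 13.7 and 11.3 RPKM at 24 hours, against 10.3, 7.83 and 6.79 RPKM in controls) by 0.72 ± 0.22, and 4 fell. Of 36 genes of TGF-beta, BMP and Notch signalling 1 rose, the receptor Tgfbr1 (5.73, 7.96 and 15.02 RPKM at 24 hours, against 3.58, 2.96 and 2.71 RPKM in controls) by 1.28 ± 0.26, and 5 fell, the Notch target Hes1 (6.98, 5.96 and 2.17 RPKM at 24 hours, against 11.2, 11.8 and 12.7 RPKM in controls) at -1.20 ± 0.34. Without A3280, in limma, the counts were 0 higher and 0 lower (1 and 11) on the clock list, 0 higher and 0 lower (0 and 6) on the adrenergic list, 0 higher and 0 lower (1 and 7) on the glucocorticoid list and 0 higher and 0 lower (1 and 11) on the list of TGF-beta, BMP and Notch. Centring left 2 genes higher and 4 lower on that last list, and the GC correction 1 higher and 1 lower. On the glucocorticoid list each gave 2 higher and 3 lower.

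Among the largest rises and falls on both scales that did not pass every alternative, the ubiquitin-conjugating variant Ube2v2 had 25.02, 14.9 and 27.5 RPKM at 24 hours, against 6.82, 4.05 and 3.98 RPKM in controls, and rose by 1.97 ± 0.35. Polr2k, a small subunit shared by the RNA polymerases, had 40.4, 15.3 and 58.3 RPKM at 24 hours, against 11.02, 6.46 and 10.1 RPKM in controls, and rose by 1.77 ± 0.41. The homeobox gene Rhox8, better known from the testis, had 9.83, 19.7 and 15.4 RPKM at 24 hours, against 4.43, 2.28 and 2.41 RPKM in controls, and rose by 1.98 ± 0.43. Cebpb, a leucine zipper factor, had 15.6, 18.3 and 3.96 RPKM at 24 hours, against 35.5, 49.05 and 45.02 RPKM in controls, a log2 difference of -1.91 ± 0.53. Marcks, a substrate of protein kinase C, had 4.19, 9.79 and 0.675 RPKM at 24 hours, against 14.2, 15.02 and 18.6 RPKM in controls, a log2 difference of -1.89 ± 0.53, with A3262 far under the other induced mice. Ndg2 had 339, 343 and 137 RPKM at 24 hours, against 769, 927 and 1121 RPKM in controls, a log2 difference of -1.88 ± 0.37.

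Smaller groups past the test held few genes. Of 24 p53 target genes 2 rose and 2 fell (3 and 4), with Perp (41.04, 57.6 and 23.6 RPKM at 24 hours, against 87.4, 82.5 and 82.6 RPKM in controls) at -1.12 ± 0.28. Centring left 3 p53 targets higher and 1 lower, and the GC correction 0 higher and 1 lower. Of 29 chemokine and acute inflammation genes 1 rose and 1 fell (2 and 5), and the chemokine Ccl6 (5.32, 15.5 and 11.6 RPKM at 24 hours, against 5.35, 3.95 and 2.77 RPKM in controls) rose by 1.16 ± 0.31, although mouse A3254 lay under the highest control. Of 23 cell division genes 1 rose and 1 fell (2 and 2), the replication clamp Pcna (37.5, 38.7 and 40.9 RPKM at 24 hours, against 25.1, 24.9 and 26.5 RPKM in controls) rising by 0.59 ± 0.13 and the cyclin Ccnd3 (22.7, 24.3 and 19.6 RPKM at 24 hours, against 40.8, 45.4 and 48.2 RPKM in controls) at -0.98 ± 0.23. Of 30 genes known to be misspliced in myotonic dystrophy 0 rose and 6 fell (1 and 12), which concerns their total level and not their splicing, and without A3280 the counts were 0 higher and 0 lower (1 and 9). Centring and the GC correction each gave 2 higher and 4 lower. The summed level of the 32 genes found was higher at 24 hours, 9429 to 10134 RPKM, against 8095 to 9109 RPKM in controls.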
